A study of Mus musculus with 12 samples.

Results

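The genes described here are 8 members of the epidermal growth factor receptor (EGFR) circuit. They are the ligands Hbegf, Areg, Ereg, Btc and Tgfa, the receptor Egfr, and the inhibitors Errfi1 and Lrig1. They were taken as a list by name and matched by Ensembl identifier to mm10 gene symbols. The list was chosen with earlier results of these data known. All 8 were among the 54100 features listed in every library of the series.

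EGFR ligands are made as precursors anchored in the cell membrane and are cut free by ADAM proteases. A bound receptor signals through RAS to the kinase ERK, and also through PI3K. ERK activity in turn raises transcription of several ligands, of immediate early genes such as Fos and Egr1, and of inhibitors. Errfi1 (also called MIG6) binds the kinase domain of EGFR and blocks it, and Lrig1 is a membrane protein that promotes receptor degradation.

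PolyA-selected RNA was measured by RNA-seq in 12 mouse libraries, 2 in each of 6 groups, all labelled C57BL/6J. The SSTC3 and DMSO groups are labelled BMDM, bone marrow-derived macrophages with a TREX knockout. The TREX names carry the numbers 1 and 2 in SSTC3 libraries and 3 and 4 in DMSO libraries. The labels do not say what these numbers stand for. No number occurs in both groups, so whatever the numbers mark cannot be told apart from treatment. SSTC3 is a compound known to activate CK1α, and DMSO is its solvent. The label of the other 8 libraries is MEF (mouse embryonic fibroblasts), and they hold CK1α overexpression (CK1a_OE) with an overexpression control (OE_control), and CK1α knockdown by siRNA (CK1a_siRNA) with a knockdown control. The labels give no dose, time, construct or siRNA sequence. They also give no animal number or age, and do not say whether replicates are separate cultures. The p-values thus reflect only how far the libraries of a group lie apart, and that spread may be technical. For each gene most of that spread is borrowed from the other genes, since a gene has only 2 libraries per group. The series asks how CK1α bears on cGAS-STING signalling.

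Library totals ran from 16063627 to 19427506 counts. The overexpression set listed 55401 features per library and the other 2 sets 54532, so the sets were counted on different feature lists. Csnk1a1, which encodes CK1α, had 172 and 169 CPM (counts scaled by the library total) in CK1a_siRNA libraries, against 325 and 354 CPM in knockdown controls. It had 229 and 244 CPM in CK1a_OE libraries, against 238 and 235 CPM in OE_control libraries, a log2 fold change of −0.01 ± 0.04 (SE, adjusted p = 0.901), so the libraries labelled as overexpressing did not carry more of this mouse transcript. The 4 libraries labelled BMDM went against that label. The macrophage marker Adgre1 had 0 counts in all 4, Lyz2 had 0 to 2 counts, and 12 to 16 of 20 macrophage markers were at 0. The 20 markers summed to 10.5 and 11 CPM in SSTC3 libraries and to 9.03 and 8.91 CPM in DMSO libraries. By contrast, 14 fibroblast markers summed to 8640 and 8740 CPM in SSTC3 and to 9870 and 9550 CPM in DMSO. They summed to between 4000 and 4830 CPM in the libraries labelled MEF. The cells are therefore called here by their treatment and label only.

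Promoter sequence from RefSeq (GRCm38.p6, the build mm10) was read for 6 of the 8 members, and none was read for Ereg or Hbegf. It came as 7 windows of 250 bases before to 50 bases after a start, 2 of them for Errfi1. The windows of Areg and of the downstream start of Errfi1 are shown because these were the members with the largest fitted changes under SSTC3 and both hold TGACGTCA, the cAMP response element (CRE) that CREB and ATF factors are known to bind. Capitals mark that element. The Areg window lies at chr5:91139349-91139648 and the Errfi1 window at chr4:150854820-150855119, both on the plus strand.
Areg: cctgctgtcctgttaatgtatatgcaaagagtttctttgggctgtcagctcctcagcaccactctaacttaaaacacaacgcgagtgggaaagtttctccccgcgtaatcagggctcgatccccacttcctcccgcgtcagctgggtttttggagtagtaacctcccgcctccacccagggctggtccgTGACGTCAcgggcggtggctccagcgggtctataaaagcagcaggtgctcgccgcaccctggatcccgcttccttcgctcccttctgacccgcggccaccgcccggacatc
Errfi1: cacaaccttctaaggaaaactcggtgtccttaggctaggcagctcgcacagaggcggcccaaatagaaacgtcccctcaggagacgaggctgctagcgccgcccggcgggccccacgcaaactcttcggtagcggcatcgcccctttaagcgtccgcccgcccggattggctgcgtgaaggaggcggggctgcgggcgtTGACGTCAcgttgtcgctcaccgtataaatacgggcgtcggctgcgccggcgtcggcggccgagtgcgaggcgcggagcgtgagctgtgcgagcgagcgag

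In the Areg window the element spans bases −61 to −54 (chr5:91139538-91139545), counting the base before the start as −1, and a TATAAA begins at −31. In the Errfi1 window it spans −51 to −44 (chr4:150855019-150855026), and a TATAAA begins at −28. Among 32851 promoter windows of the same length, 588 (1.79%) held TGACGTCA on either strand, and 36 (0.11%) held it together with TATAAA on the gene's strand. TATAAA on the gene's strand was in 2733 (8.32%) of all windows. TATAAA was not part of the planned search, and both windows are shown because they hold TGACGTCA. The shares are thus a description only. The other 5 windows, which belong to Btc, Tgfa, Egfr, Lrig1 and the upstream start of Errfi1, did not hold TGACGTCA. None of the 7 windows held the AP-1 motif TGANTCA (7.81% of all windows), the Egr motif GCGNGGGCG (5.55%), the CArG box (1.63%), the heat shock motif GAANNTTC (7.86%), the E-box CACGTG (7.15%) or the NF-kB motif (1.63%). All motifs were read on both strands. These matches describe the letters of the windows and say nothing of which factor acted on them.

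Ligands and feedback inhibitors were higher together with SSTC3. All 8 members were tested against DMSO, 7 were higher and 0 were lower. Of the 14151 genes tested, 53.6% passed the test in either direction, 27.1% higher and 26.5% lower (edgeR quasi-likelihood F test, Benjamini-Hochberg adjusted p under 0.05). The median log2 fold change was 2.81 over the 8 members and 0.0115 over all genes tested. The receptor was the member that did not pass. In bulk RNA, fewer cells of a type and less RNA per cell cannot be told apart. The sum of 10 epithelial markers also differed, at 7.89 and 7.49 CPM in SSTC3 libraries and 3.46 and 3.56 CPM in DMSO libraries, led by Krt19. In SSTC3 libraries 1 and 2 of the 10 were at 0, against 5 and 5 in DMSO libraries. The median of the 10 was 0.206 and 0.147 CPM in SSTC3 libraries, against 0.0293 and 0.0594 CPM in DMSO libraries. These medians lie near or below the level of 3 counts, which is 0.176 to 0.178 CPM in these libraries. The median of the 14 fibroblast markers was lower, at 76.5 and 79.9 CPM in SSTC3 libraries, against 131 and 126 CPM in DMSO libraries. The part of either marker list in the result was not tested.

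**Figure D1:**
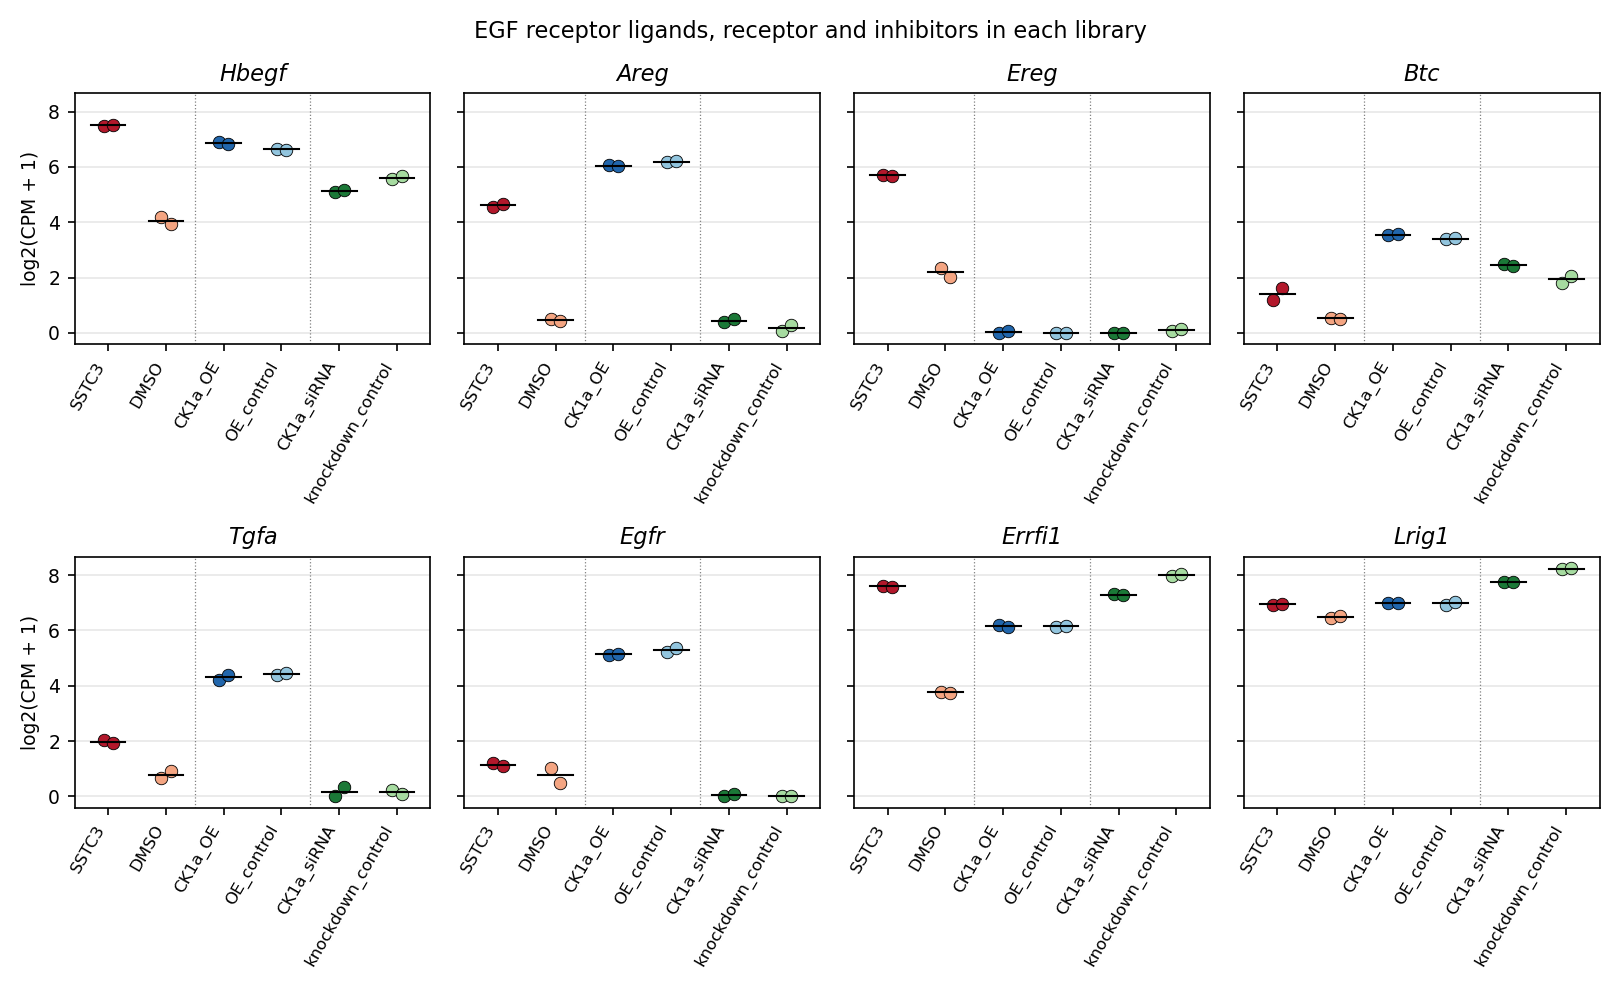
Level of each EGFR circuit gene in each of the 12 libraries, as log2(CPM + 1) by library total, with groups on the horizontal axis. Points are libraries and bars are group means, and the points of 1 group lie close together compared with the distance between SSTC3 and DMSO for Hbegf, Areg, Ereg and Errfi1.

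Areg encodes amphiregulin, a ligand of EGFR. It had 22.4 and 24.4 CPM in SSTC3 libraries (380 and 414 counts), against 0.41 and 0.356 CPM in DMSO libraries (7 and 6 counts). Both SSTC3 values stood far above both DMSO values, and this was the largest log2 fold change of the 8, 5.96 ± 0.23 (SE, n = 2 per group, adjusted p = 1.51e-70). The ratio of mean CPM was 61.0, with an exact 95% interval of 35.5 to 115 from the counts, which covers counting error only. Among all 14151 genes the fold change of Areg ranked 32.

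Ereg encodes epiregulin, which binds EGFR and ErbB4. It had 51.9 and 50.6 CPM in SSTC3 libraries, against 4.1 and 3.09 CPM in DMSO libraries. The groups did not overlap, and the log2 fold change was 3.88 ± 0.12 (adjusted p = 3.29e-89). Its exons share 141 bases (3.42% of their length) with the antisense gene Gm19610, and with the strand setting not given, reads there cannot be told apart. Gm19610 itself averaged 0.766 CPM in SSTC3 and 0.442 CPM in DMSO libraries, well below Ereg.

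Hbegf encodes heparin-binding EGF-like growth factor, which also serves in primates as the receptor of diphtheria toxin. It had 179 and 183 CPM in SSTC3 libraries, against 17.1 and 14.4 CPM in DMSO libraries. The log2 fold change was 3.58 ± 0.07 (adjusted p = 1.21e-136), a ratio of mean CPM of 11.5. It was the ligand with the highest CPM per kilobase of exon in both groups, at 37.4 ± 0.467 in SSTC3 and 3.25 ± 0.395 in DMSO (SD, n = 2).

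Tgfa and Btc, which encode transforming growth factor alpha and betacellulin, were at much lower levels. Tgfa had 3.12 and 2.77 CPM in SSTC3 libraries, against 0.586 and 0.891 CPM in DMSO libraries, a log2 fold change of 2.04 ± 0.38 (adjusted p = 6.70e-07). Btc had 1.3 and 2.12 CPM in SSTC3 libraries (22 and 36 counts), against 0.469 and 0.416 CPM in DMSO libraries (8 and 7 counts), a log2 fold change of 1.99 ± 0.49 (adjusted p = 0.000205). The groups did not overlap for either gene. How many of all genes had groups that did not overlap is not given here, so this is a description only. The Btc call depended on 1 library, since without SSTC3 replicate 2 the log2 fold change was 1.59 and the adjusted p was 0.0733.

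Egfr was read at about 1 CPM in these cells, with 1.3 and 1.12 CPM in SSTC3 libraries (22 and 19 counts), against 1.06 and 0.416 CPM in DMSO libraries (18 and 7 counts). The log2 fold change of 0.76 ± 0.47 did not pass the test (adjusted p = 0.169). Its groups did not overlap either, so with 2 libraries per group a lack of overlap alone does not mark a call. The 2 DMSO values differed from each other by more than the lower SSTC3 value differed from the higher DMSO value. Leaving out a library moved this value, to 1.57 without DMSO replicate 1 (adjusted p = 0.0736) and to 0.24 without DMSO replicate 2 (adjusted p = 0.766). The ratio of mean CPM was 1.64 with an exact 95% interval of 0.973 to 2.81, so a difference of this size was not detectable at this depth.

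Errfi1, the inhibitor of the EGFR kinase, had a log2 fold change close to those of Ereg and Hbegf. It had 196 and 190 CPM in SSTC3 libraries, against 12.7 and 12.4 CPM in DMSO libraries. The log2 fold change was 3.99 ± 0.07 (adjusted p = 1.50e-145), a ratio of mean CPM of 15.3. Lrig1 moved far less, with 121 and 123 CPM in SSTC3 libraries against 85.6 and 89.9 CPM in DMSO libraries, a log2 fold change of 0.53 ± 0.05 (adjusted p = 3.22e-18). Its groups still did not overlap. Lrig1 exons share 144 bases (2.58%) with Slc25a26, a protein-coding gene on the opposite strand, which averaged 7.4 CPM in SSTC3 and 7.26 CPM in DMSO libraries.

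**Figure D2:**
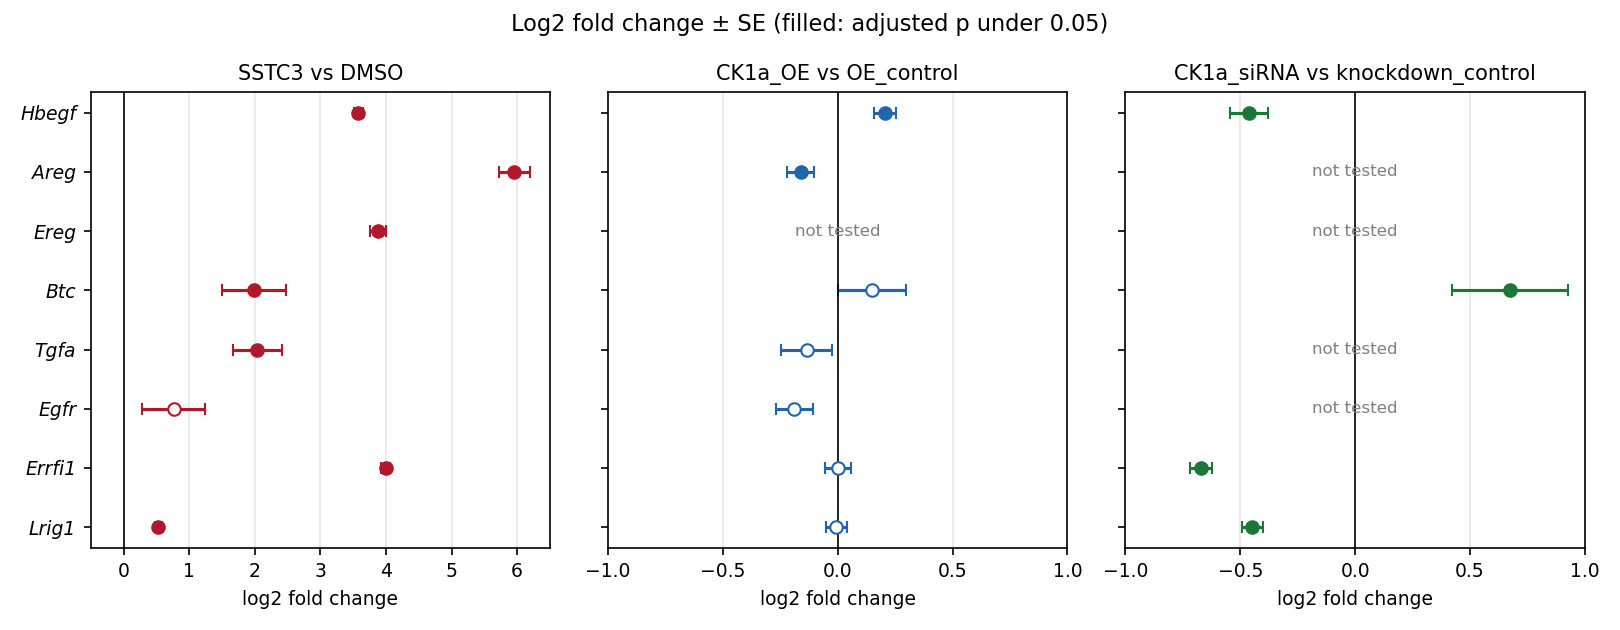
Log2 fold change of each gene (horizontal axis) with its SE in the 3 comparisons, with a wider axis for SSTC3 than for the other panels. Filled points passed the test and open points did not, genes removed by the filter on low counts are marked as not tested, and the SSTC3 panel reaches 5.96 (Areg) while no gene of the other panels passes a size of 1.

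Fold changes of the members were small in the libraries labelled CK1a_OE. These libraries are called overexpression here by their label alone, since Csnk1a1 was not higher in them. Of the 7 members tested, 1 was higher and 1 was lower, against a background of 13.3% of 13958 genes called, 5.78% higher and 7.57% lower. The median log2 fold change was −0.00608 over the 7 members and 0.000131 over all genes. The 14 fibroblast markers summed to 4260 and 4280 CPM in CK1a_OE libraries, against 4830 and 4770 CPM in OE_control libraries, and their median was 16 and 16 CPM in CK1a_OE libraries, against 22.5 and 21.4 CPM in OE_control libraries. Their part in the result was not tested. Ereg was removed by the filter on low counts, with 0 and 1 counts in CK1a_OE libraries and 0 in both OE_control libraries.

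Hbegf had 119 and 112 CPM in CK1a_OE libraries, against 100 and 98.0 CPM in OE_control libraries, a log2 fold change of 0.21 ± 0.05 (adjusted p = 0.00195). The groups did not overlap, but the call was lost with DESeq2 (adjusted p = 0.0604) and without CK1a_OE replicate 1 (log2 fold change 0.16, adjusted p = 0.0544). Areg had 66.3 and 64.4 CPM in CK1a_OE libraries, against 72.1 and 72.6 CPM in OE_control libraries. Its log2 fold change of −0.16 ± 0.06 lay at the threshold (adjusted p = 0.0498), and the call was lost when any of the 4 libraries was left out, with adjusted p-values of 0.071 to 0.223.

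The other 5 tested members did not pass. Btc had 10.5 and 11 CPM in CK1a_OE libraries against 9.47 and 9.71 CPM in OE_control libraries (log2 fold change 0.15 ± 0.15, adjusted p = 0.579). Tgfa had 17.7 and 20 CPM in CK1a_OE libraries against 20.2 and 20.8 CPM in OE_control libraries (−0.14 ± 0.11, adjusted p = 0.475). Egfr had 34.0 and 34.4 CPM in CK1a_OE libraries against 36.6 and 40.6 CPM in OE_control libraries (−0.19 ± 0.08, adjusted p = 0.122). None of Btc, Tgfa and Egfr passed, though their groups did not overlap. The inhibitors had the smallest differences. Errfi1 had 72.3 and 69.2 CPM in CK1a_OE libraries against 68.9 and 71.1 CPM in OE_control libraries (0.00 ± 0.06, adjusted p = 0.987), and the groups overlapped. Lrig1 had 127 and 127 CPM in CK1a_OE libraries against 121 and 131 CPM in OE_control libraries (−0.01 ± 0.05, adjusted p = 0.954), again overlapping.

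Hbegf and both inhibitors were lower with CK1α knockdown. Only 4 members had enough counts to be tested, of which 1 was higher and 3 were lower. The background was high here too, with 54.7% of 14832 genes called, 28.3% higher and 26.4% lower, so having all 4 called is to be read against that share. The median log2 fold change was −0.454 over the 4 members and −0.00768 over all genes. The 14 fibroblast markers summed to 4680 and 4780 CPM in CK1a_siRNA libraries, against 4070 and 4000 CPM in knockdown controls, with Vim the highest of them. The median of the 14 went the other way, at 17.2 and 18.2 CPM in CK1a_siRNA libraries against 32.7 and 32.3 CPM in controls. The 20 macrophage markers summed to 304 and 302 CPM, against 261 and 256 CPM in controls, nearly all of it Cd68, with Adgre1 at 0 to 3 counts. The part of either in the result was not tested.

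Hbegf had 33.5 and 34.7 CPM in CK1a_siRNA libraries, against 46.6 and 49.4 CPM in knockdown controls, and the log2 fold change was −0.46 ± 0.08 (adjusted p = 2.36e-06). Errfi1 had 157 and 154 CPM in CK1a_siRNA libraries, against 247 and 261 CPM in knockdown controls, and the log2 fold change was −0.67 ± 0.05 (adjusted p = 1.66e-19). Lrig1 had 215 and 212 CPM in CK1a_siRNA libraries, against 294 and 302 CPM in knockdown controls, and the log2 fold change was −0.45 ± 0.05 (adjusted p = 2.58e-13). For each of these genes both knockdown libraries lay below both controls. Slc25a26, on the opposite strand to Lrig1, averaged 9.61 CPM in CK1a_siRNA and 4.74 CPM in control libraries.

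Btc was the exception, with 4.58 and 4.31 CPM in CK1a_siRNA libraries (89 and 82 counts), against 2.49 and 3.19 CPM in knockdown controls (40 and 57 counts). Its log2 fold change was 0.67 ± 0.25 (adjusted p = 0.0197). The call was lost with DESeq2 (adjusted p = 0.167), without CK1a_siRNA replicate 1 (0.64, adjusted p = 0.0861) and without knockdown_control replicate 1 (0.51, adjusted p = 0.133).

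Areg, Ereg, Tgfa and Egfr were close to 0 in this cell set and were not tested. Areg had 6 and 8 counts in CK1a_siRNA libraries, against 1 and 4 in controls. Ereg had 0 counts in both CK1a_siRNA libraries, against 1 and 2 in controls. Tgfa had 0 and 5 counts in CK1a_siRNA libraries, against 3 and 1 in controls. Egfr had 0 and 1 counts in CK1a_siRNA libraries and 0 in both controls, where a count of 0 allows a level of up to 0.0885 CPM over the 2 control libraries (3 counts, counting error only). The transcript of the receptor itself was therefore not detectable at this depth in the knockdown controls.

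The effects were set against each other in a fit of all 12 libraries, over 17105 genes. The SSTC3 effect differed from the overexpression effect for 32.7% of genes, the SSTC3 effect from the knockdown effect for 45.1%, and the knockdown effect from the overexpression effect for 35.1%. The label of the cells differs between the SSTC3 set and the others. Levels of several members also lay far apart between the overexpression and knockdown sets, both labelled MEF. Treatment and cells thus cannot be told apart in any of these differences. The SSTC3 effect exceeded the overexpression effect by 6.12 for Areg (adjusted p = 2.25e-39), 3.99 for Errfi1 (1.48e-58), 3.37 for Hbegf (4.34e-51), 2.17 for Tgfa (9.33e-07), 1.83 for Btc (0.000927) and 0.53 for Lrig1 (6.58e-10), all on the log2 scale. Egfr differed by 0.95 and did not pass (adjusted p = 0.0628), though it did without DMSO replicate 1 (1.75, adjusted p = 0.0101).

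The SSTC3 effect exceeded the knockdown effect by 4.70 for Errfi1 (adjusted p = 2.24e-67), 4.07 for Hbegf (4.14e-55) and 1.00 for Lrig1 (2.33e-24). These genes rose with SSTC3 and fell with knockdown. The difference for Btc was 1.34 (0.0205), and it did not pass without SSTC3 replicate 2 (0.93, adjusted p = 0.208). It also missed the threshold without DMSO replicate 1 (0.0612), DMSO replicate 2 (0.0909) or knockdown_control replicate 2 (0.087). The knockdown effect minus the overexpression effect was −0.71 for Errfi1 (3.24e-14), −0.70 for Hbegf (2.44e-10) and −0.48 for Lrig1 (1.75e-09). For Btc it was 0.49 and did not pass (0.222). Areg, Ereg, Tgfa and Egfr did not pass the filter on low counts in the knockdown set, nor Ereg in the overexpression set, so their effects there were not measured and no difference from those effects is read.

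The ligands made up different mixtures in the 3 cell sets. On the scale of CPM per kilobase of exon, which allows levels of different genes to be added, the 5 ligands summed to 68.9 and 71.0 in SSTC3 libraries, against 5.06 and 4.24 in DMSO libraries. The share of Areg in that sum was 26.7% and 28.3% in SSTC3 libraries, against 6.68% and 6.91% in DMSO libraries. The share of Hbegf was 53.9% and 53.2% in SSTC3 libraries, against 69.8% and 70.1% in DMSO libraries. Ereg held 18.3% and 17.3% in SSTC3 libraries, against 19.7% and 17.6% in DMSO libraries, so its share overlapped between the groups.

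In the overexpression set Areg was the leading ligand, with 64.8% and 64.9% of the sum in CK1a_OE libraries, against 69.6% and 70.0% in OE_control libraries. The sum itself was 84.2 and 81.6 CPM per kilobase in CK1a_OE libraries, against 85.3 and 85.4 in OE_control libraries. In the knockdown set the sum was 8.2 and 8.51 CPM per kilobase in CK1a_siRNA libraries, against 10.3 and 11.2 in knockdown controls. Hbegf held 84.5% and 84.2% of it in CK1a_siRNA libraries, against 93.7% and 91.7% in controls. Btc held 12.4% and 11.2%, against 5.35% and 6.34% in controls.

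**Figure D3:**
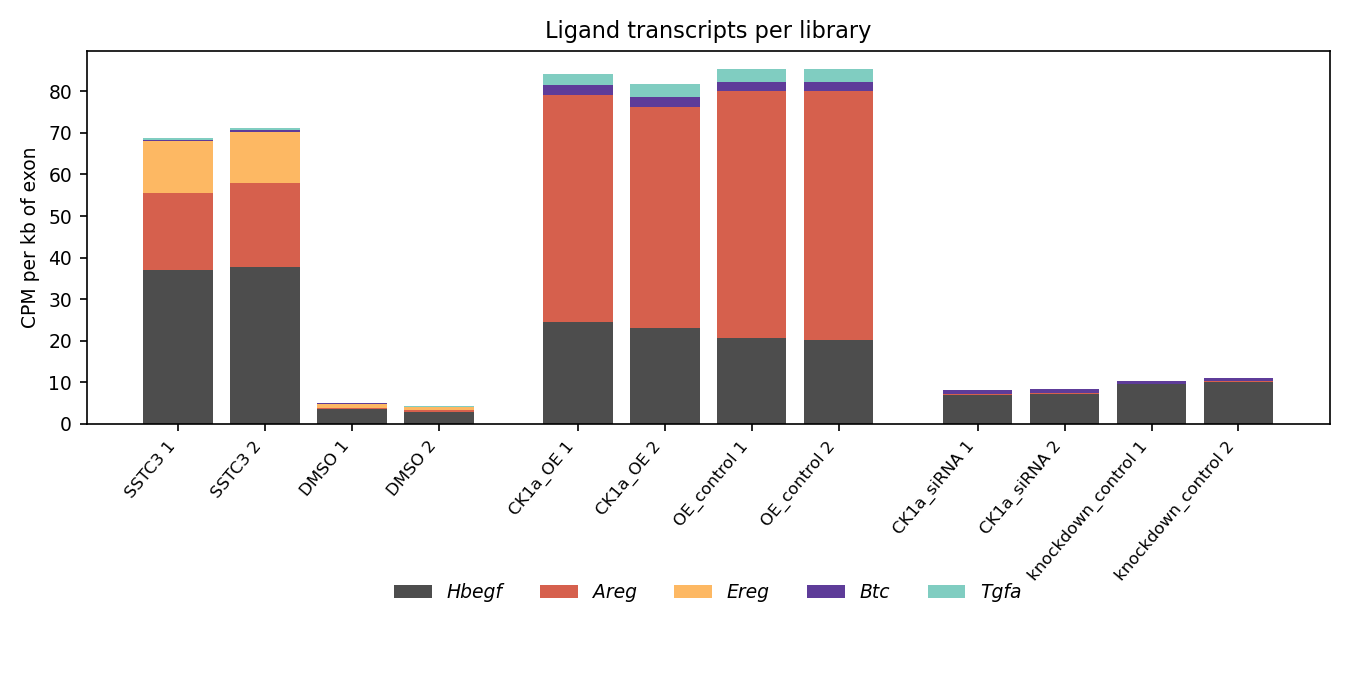
Stacked levels of the 5 ligands in each library, in CPM per kilobase of exon (vertical axis, from 0). The bars of SSTC3 libraries reach 68.9 and 71.0 and those of DMSO libraries 5.06 and 4.24, and Areg fills the largest part of the bars in the overexpression set.

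Between cell sets the levels of several members lay far apart, also between the 2 sets labelled MEF. No test was made between the levels of the sets. The overexpression set was also counted on another feature list. Hgs, a gene of the receptor downregulation list, had 83.8 and 90.8 CPM in CK1a_OE libraries but failed the filter on low counts in the other 2 sets. Cells and counting thus cannot be told apart in gaps between the overexpression set and the others. Egfr averaged 34.2 ± 0.337 CPM in CK1a_OE and 38.6 ± 2.86 CPM in OE_control libraries (SD, n = 2), against 0.0263 ± 0.0372 CPM in CK1a_siRNA libraries and 0 CPM in knockdown controls. Areg averaged 65.3 ± 1.35 CPM in CK1a_OE and 72.4 ± 0.329 CPM in OE_control libraries, against 0.365 ± 0.0791 CPM in CK1a_siRNA and 0.143 ± 0.114 CPM in knockdown control libraries. Errfi1 ran the other way. Its levels were, from high to low, 254 ± 10.1 CPM in knockdown controls, 193 ± 4.35 in SSTC3, 156 ± 1.85 in CK1a_siRNA, 70.8 ± 2.14 in CK1a_OE, 70.0 ± 1.55 in OE_control and 12.6 ± 0.224 in DMSO libraries, of which CK1a_OE and OE_control overlapped. The order for Lrig1 began with 298 ± 5.45 CPM in knockdown controls and 213 ± 2.27 CPM in CK1a_siRNA libraries. OE_control ran from 121 to 131 CPM and overlapped CK1a_OE, at 127 and 127 CPM, and SSTC3, at 121 and 123 CPM, which did not overlap each other. DMSO was lowest at 87.8 ± 3.1 CPM. Ereg stood above 1 CPM only in the set labelled BMDM.

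The 6 lists of other genes of the pathway were read beside the members (their genes were chosen with earlier results of these data known). The list of ERK output and feedback genes held transcription factors, dual-specificity phosphatases, Sprouty and Spred inhibitors, and it moved with the members. In the SSTC3 comparison 16 of 16 were tested, 16 were higher and 0 lower, where 53.6% of all genes were called, with a median log2 fold change of 4.45. Egr1 had 2160 and 2190 CPM in SSTC3 libraries, against 4.05 and 6.06 CPM in DMSO libraries (8.80 ± 0.06, adjusted p = 4.55e-197). Fos had 338 and 319 CPM, against 0.645 and 0.594 CPM in DMSO libraries (9.09 ± 0.10, adjusted p = 3.43e-191). Fosl1 had 365 and 364 CPM, against 35.4 and 35.6 CPM in DMSO libraries (3.42 ± 0.05, adjusted p = 1.14e-160).

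In the overexpression comparison 2 of the 16 were higher and 2 were lower, where 13.3% of all genes were called, with a median of −0.0279. Egr1 had 178 and 181 CPM in CK1a_OE libraries, against 125 and 122 CPM in OE_control libraries (0.52 ± 0.04, adjusted p = 2.19e-14). Myc (0.11 ± 0.03, adjusted p = 0.00355) and Etv4 (−0.24 ± 0.05, adjusted p = 0.000788) changed in opposite directions. With knockdown 15 were tested, 2 were higher and 13 lower, where 54.7% of all genes were called, with a median of −0.924. Fosl1, which rose with SSTC3, was among those higher with knockdown too (0.28 ± 0.05, adjusted p = 2.57e-07). Egr1 had 83.9 and 81.9 CPM in CK1a_siRNA libraries, against 708 and 724 CPM in knockdown controls (−3.08 ± 0.05, adjusted p = 1.21e-54). Dusp4, which dephosphorylates ERK, had 54.0 and 59.6 CPM, against 332 and 356 CPM in controls (−2.56 ± 0.05, adjusted p = 4.41e-46). Myc had 424 and 426 CPM, against 968 and 955 CPM in controls (−1.14 ± 0.04, adjusted p = 1.43e-34).

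For the other ligands of the family no rise was called with SSTC3. Of 6, 4 were tested for SSTC3 and 0 passed in edgeR, 0 also at an unadjusted p under 0.05. Of all genes, 53.6% passed at the adjusted threshold. Nrg1 had 10.1 and 8.49 CPM in SSTC3 libraries, against 8.21 and 7.48 CPM in DMSO libraries (0.30 ± 0.16, adjusted p = 0.106). Nrg2 (0.62 ± 0.38, adjusted p = 0.156) and Egf (−0.38 ± 0.25, adjusted p = 0.20) did not pass either. With overexpression 3 were tested and 0 passed, 0 also at an unadjusted p under 0.05, where 13.3% of all genes were called. With knockdown Egf was lower, with 0.772 and 1.16 CPM in CK1a_siRNA libraries against 1.68 and 2.24 CPM in controls (−0.99 ± 0.42, adjusted p = 0.0399), and Nrg4 did not pass (−0.44 ± 0.38, adjusted p = 0.346).

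Among the other receptors, Erbb3 rose with SSTC3, with 5.48 and 5.6 CPM against 2.4 and 3.03 CPM in DMSO libraries (1.08 ± 0.23, adjusted p = 1.77e-05). Erbb2, which pairs with other ErbB receptors and has no known ligand, was lower, with 48.3 and 49.7 CPM against 59.2 and 60.1 CPM in DMSO libraries (−0.23 ± 0.07, adjusted p = 0.00261). With overexpression Erbb2 was also lower, with 47.8 and 51.7 CPM against 59.2 and 57.4 CPM in OE_control libraries (−0.24 ± 0.07, adjusted p = 0.00773). With knockdown it was higher, with 65.4 and 71.9 CPM in CK1a_siRNA libraries against 42.1 and 37.7 CPM in controls (0.82 ± 0.08, adjusted p = 1.44e-14). Erbb2 was thus read in all 3 sets at levels well above the Egfr level of the SSTC3 and knockdown sets. Erbb4 had at most 1 count in a library and was not tested.

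Of the genes of ligand release, 2 of 11 tested for SSTC3 were higher and 2 lower, fewer called than the 53.6% of all genes. Rhbdf1, which carries the protease ADAM17 to the cell surface, had 96.1 and 97.8 CPM in SSTC3 libraries against 64.8 and 62.8 CPM in DMSO libraries (0.66 ± 0.06, adjusted p = 3.63e-22). Timp3, a protein inhibitor of ADAM17, had 19.7 and 18.9 CPM against 7.56 and 6.71 CPM in DMSO libraries (1.49 ± 0.14, adjusted p = 5.46e-22). The protease gene Adam10 was lower (−0.35 ± 0.05, adjusted p = 1.72e-09). With overexpression 0 of 10 were higher and 3 lower, where 13.3% of all genes were called. These were Adam8 (−0.32 ± 0.04, adjusted p = 3.02e-07), Frmd8 (−0.18 ± 0.06, adjusted p = 0.0197) and Timp3 (−0.25 ± 0.09, adjusted p = 0.0419). With knockdown 2 of 10 were higher and 5 lower, where 54.7% of all genes were called. Adam17 had 141 and 139 CPM in CK1a_siRNA libraries, against 184 and 185 CPM in controls (−0.36 ± 0.05, adjusted p = 3.99e-09), Adam10 was lower too (−0.44 ± 0.06, adjusted p = 1.15e-09), and Rhbdf1 was higher (0.49 ± 0.06, adjusted p = 2.96e-11).

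Genes of receptor downregulation and of the relay from receptor to ERK had medians near 0 with SSTC3, at −0.0314 and −0.0583. For SSTC3, 3 of 12 tested downregulation genes were higher and 2 lower, led by the phosphatase gene Ptprj, with 21.7 and 22.7 CPM against 10.7 and 11.1 CPM in DMSO libraries (1.08 ± 0.12, adjusted p = 5.64e-16). Of 20 relay genes, 3 were higher and 8 lower, near the 53.6% called among all genes. They include the adaptor gene Shc1 (0.53 ± 0.05, adjusted p = 2.12e-22), Plcg1 (−0.60 ± 0.05, adjusted p = 4.12e-22) and the exchange factor gene Sos1 (−0.54 ± 0.06, adjusted p = 1.66e-17). With overexpression 1 of 13 downregulation genes was higher and 1 lower, and 1 of 20 relay genes was higher and 1 lower. The share called among all genes there was 13.3%. With knockdown 6 of 11 downregulation genes were higher and 3 lower, and 8 of 20 relay genes were higher and 4 lower, against 54.7% called among all genes. Sh3kbp1 (0.75 ± 0.07, adjusted p = 5.88e-15) and Pik3r1, a regulatory subunit of PI3K (0.83 ± 0.07, adjusted p = 1.44e-17), were among those higher.

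**Figure D4:**
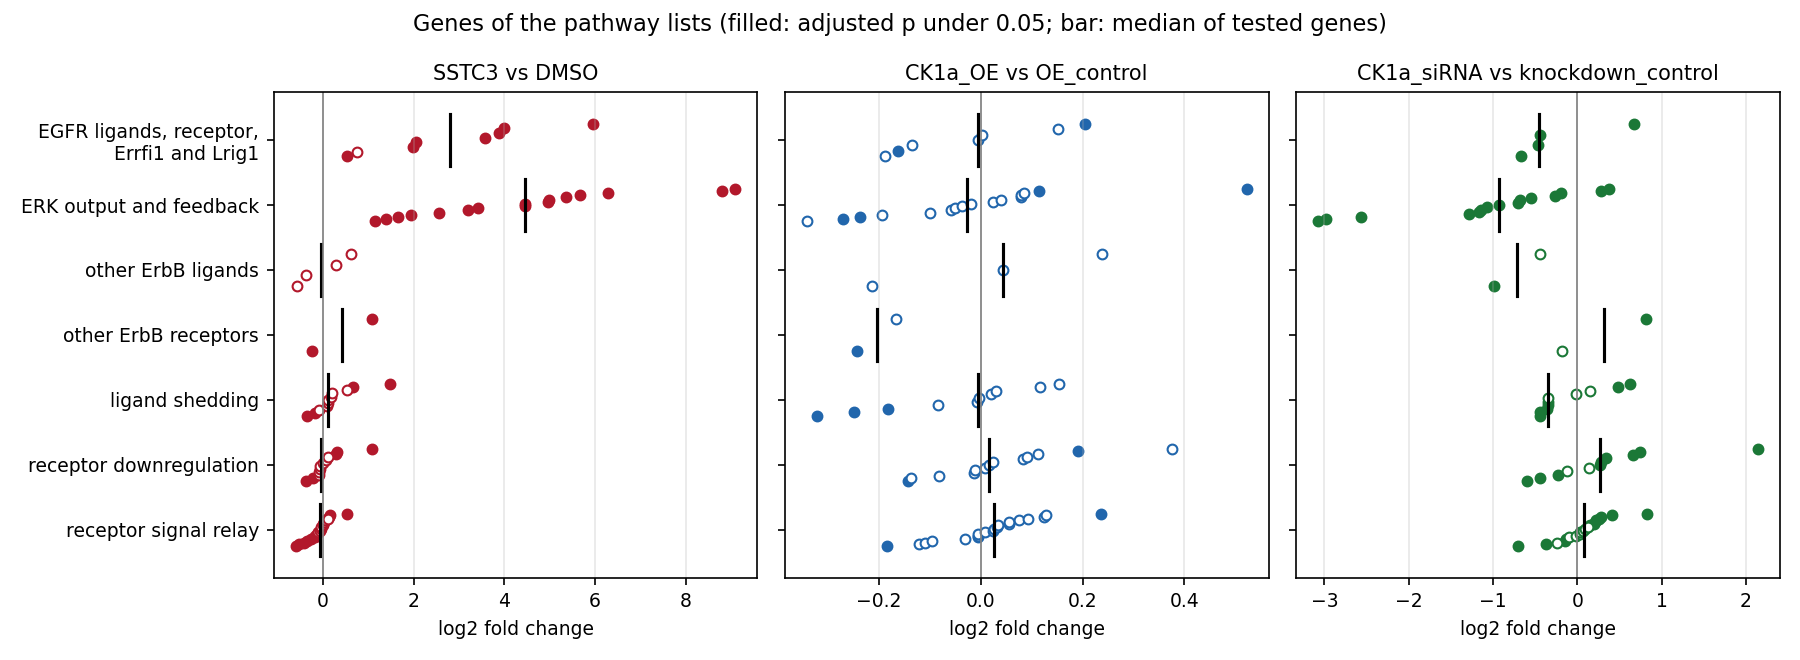
Log2 fold change of every tested gene of the EGFR circuit and of the 6 pathway lists in the 3 comparisons (horizontal axis, with its own range in each panel). Filled points passed the test, bars are list medians, and the medians of the ERK output list lie at 4.45 with SSTC3, −0.0279 with overexpression and −0.924 with knockdown.

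Ereg, Areg and Btc lie in the same stretch of mouse chromosome 5 (mm10, GENCODE M21). Ereg spans chr5:91074622-91093646 and Areg chr5:91139599-91148432, both on the plus strand and 45953 bases apart. Btc spans chr5:91357261-91402994 on the minus strand, 208829 bases beyond Areg. Epgn, another EGFR ligand gene, lies 39407 bases before Ereg and was not tested for SSTC3, with a mean of 0.324 CPM in SSTC3 and 0.71 CPM in DMSO libraries. The neighbours further out were chosen for their position with their values known. The chemokine gene Cxcl1 averaged 274 CPM in SSTC3 and 44.5 CPM in DMSO libraries (2.68 ± 0.05, adjusted p = 5.08e-134), and Cxcl2 averaged 2.0 CPM in SSTC3 and 0.354 CPM in DMSO libraries (2.53 ± 0.49, adjusted p = 2.47e-06). Mthfd2l, between Cxcl2 and Epgn, was slightly lower (−0.30 ± 0.09, adjusted p = 0.00207). The rise was therefore not shared by every gene of the stretch. With knockdown Cxcl1 averaged 124 CPM in CK1a_siRNA and 684 CPM in control libraries (−2.42 ± 0.05, adjusted p = 1.17e-49).

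The other members lie elsewhere. In mm10 Hbegf spans chr18:36504927-36515805 (minus strand), Tgfa chr6:86195223-86275719 (plus), Egfr chr11:16752203-16918158 (plus), Errfi1 chr4:150853919-150868892 (plus) and Lrig1 chr6:94604529-94700158 (minus). Tgfa exons share 118 bases (1.82%) with Gm43917 on the opposite strand, which had at most 3 counts in a library.

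The genes most like each member over the 12 libraries were found by the smallest root mean square difference of log2(CPM + 1), centred on each gene's mean, among 11974 genes. The libraries of a group share their cells and treatment, so these are descriptions of 6 groups. Errfi1 was most like Spry4, a feedback inhibitor of the RAS to ERK route (0.295, Pearson r 0.993), followed by Nr4a3 and Tnfaip3. Spry4 averaged 31.6 CPM in SSTC3 and 0.413 CPM in DMSO libraries. Ereg was most like Pmaip1 (0.304, r 0.998), then Dnaja4 and Adrb1. Hbegf was most like Sesn2 (0.448, r 0.958), then Efnb2 and Plk3. Areg was most like Fst, which encodes follistatin (0.544, r 0.982), then Bdkrb2 and Klrg2. Among the remaining members, Egfr was most like Fgf10 (0.139, r 0.998), then Cthrc1 and Gprin3. Tgfa was most like Dscc1 (0.239, r 0.994), then Wnt4 and Sec14l5. Btc was most like Phlda3 (0.183, r 0.987), then Eva1c and Lman1l. Lrig1 was most like Wipi2 (0.073, r 0.995), then Syne1 and Arpc5l.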

How the data were processed

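Per the labels' protocols, polyA-selected RNA was sequenced in 12 libraries. The submitters' processing notes name HISAT2, featureCounts and the build mm10. The authors deposited raw counts per gene as whole numbers. For versions, strand setting and annotation, nothing was given in the sources used here.

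The 4 libraries of each comparison were tested with edgeR 4.0.16 (quasi-likelihood F test, filterByExpr, TMM factors, robust, no block) in R 4.3.3, with Benjamini-Hochberg adjustment over all genes tested and a threshold of 0.05. The fit had 2 residual degrees of freedom per gene. The median borrowed from other genes was 257 for SSTC3, 51.2 for overexpression and 59.5 for knockdown. The SE is the absolute log2 fold change divided by the square root of F, and for large changes from low counts it can lie below the counting error. Differences of effects were contrasts in a fit of all 12 libraries. Levels are CPM by library total, and between genes per kilobase of GENCODE M21 exon union. Intervals and floors cover counting error only. The procedure was tested on simulated data.

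The members, gene lists and rules were chosen with earlier results of these data known. Named genes are the 8 members, Csnk1a1, up to 3 genes per list and comparison with the smallest adjusted p, and 3 like genes per member. Replicates of a group differed by more than sampling noise (chi-square per degree of freedom 2.29 to 3.61). Alternatives were DESeq2 1.42.0, limma-voom (limma 3.58.1), RLE factors, library totals, other filters, a 2-fold minimum, all 12 libraries, a replicate block and leaving out each library.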

Additional observations from a re-analysis of the deposited data

Results flagged for a closer look

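For 4 members the effects of 2 comparisons were called in opposite directions and the difference between the effects itself passed the test. Areg was higher with SSTC3 and, at the threshold, lower with overexpression, a difference of 6.12 on the log2 scale. That overexpression call was lost in 12 of 13 alternatives, and its adjusted p was 0.248 in the fit of all 12 libraries that gives the difference. Between SSTC3, where they were higher, and knockdown, where they were lower, the differences were 4.07 for Hbegf, 4.7 for Errfi1 and 1.0 for Lrig1. Hbegf was also lower with knockdown and higher with overexpression, a difference of −0.7. The overexpression call of Hbegf was lost in 3 of 13 alternatives.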

How the results depend on the processing

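No called result changed its direction. Results that missed the threshold did, near 0 or from few counts. Errfi1 with overexpression, at 0.00178, was at −0.00127 with 1 CPM in 2 libraries, −0.00204 with all 12 libraries, and between −0.0303 and 0.0347 when a library was left out. Lrig1 with overexpression, at −0.00608, was at 0.00767 with library totals, 0.000353 with DESeq2, and between −0.0621 and 0.0558 when a library was left out. The Egfr difference between SSTC3 and knockdown, at −1.56, was at 0.266 with limma-voom and between −2.43 and 0.746 when a library was left out, the highest without CK1a_siRNA replicate 2. The Tgfa difference between knockdown and overexpression, at 0.271, was at −0.504 with limma-voom and between −4.11 and 1.26 when a library was left out, the lowest without CK1a_siRNA replicate 2. With library totals, 3287 genes were higher and 4427 lower for SSTC3, and 984 higher and 943 lower for overexpression. With a 2-fold minimum change, 627 genes were called for SSTC3 (570 higher, 57 lower), 1 for overexpression and 632 for knockdown. For overexpression, against 1863 calls, DESeq2 gave 519 and the fit of all 12 libraries 1188. Leaving out a library gave 1065 to 1478 calls for overexpression, the lowest without OE_control replicate 1, with 1220 without OE_control replicate 2. It gave 6125 to 6718 for SSTC3 and 6629 to 7562 for knockdown. With the replicate block the counts were 7303, 1768 and 8066 for SSTC3, overexpression and knockdown. In the same order, the deviations of same-numbered libraries correlated at −0.0156, −0.00962 and 0.00501 across genes. Counting noise enters these values, so they cannot decide whether same-numbered libraries were paired. Under the block, Areg with overexpression was at −0.162 (adjusted p = 0.0638), and no other call of a member changed. With the 2-fold minimum the calls of Btc and Lrig1 for SSTC3 and of every called member in the other 2 comparisons were lost. Among the alternatives of the members' fold changes, 101 of 104 for SSTC3, 67 of 89 for overexpression and 45 of 52 for knockdown kept their direction and side of the threshold. For differences of effects, members with few counts included, 345 of 360 did, 5 changed sign, 6 lost and 4 gained a call. Scaling levels by TMM over 12 libraries moved them by factors of 0.898 to 1.11. Counts of 7 to 36 per library limit Btc and Egfr in the set labelled BMDM, and counts near 0 limit Areg, Ereg, Tgfa and Egfr in the knockdown set.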
